A study of Homo sapiens with 2 samples.

Results

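Cholesterol and fatty acid synthesis is set by a feedback loop in the endoplasmic reticulum. When sterols are low, the transcription factors encoded by SREBF1 and SREBF2 are carried to the Golgi, cleaved and sent to the nucleus, where they turn on genes of lipid synthesis. When sterols are high, the membrane proteins INSIG1 and INSIG2 hold the factors back. HMGCS1 makes HMG-CoA for the mevalonate pathway, SQLE forms the epoxide of squalene, SCD puts a double bond into saturated fatty acyl chains, and ACSL4 couples long-chain polyunsaturated fatty acids such as arachidonic acid to coenzyme A.

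The contacts of the RNA-binding protein RBM47 with the mRNAs of these 8 genes were read from Flag-RBM47 HITS-CLIP, in which ultraviolet light joins a protein to the RNA it touches and the RNA fragments pulled down with the protein are sequenced. The cells, MDA231-BrM2a, descend without cloning from the breast cancer line MDA-MB-231 and are labelled as brain metastatic. A tet-on promoter drove wild-type RBM47 with a Flag tag, and doxycycline at 1 ng/ml was given for 3 days before irradiation. The labels give 1 group of 2 libraries and do not say whether these came from separate cultures. P-values therefore compare only these libraries with each other, and the exact binomial test used below allows for counting error alone. No library from control cells is analysed here. The authors also ran RNA-seq on related cells, but RNA abundance is not used here. A well bound transcript and an abundant one therefore cannot be told apart.

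The genes were chosen by symbol from 7698 gene symbols in the deposited list of clusters, which are stretches of overlapping unique reads (tags) seen in both replicates. Every one of the 8 had at least 1 deposited cluster, and together they had 248 clusters with 10839 tags of the authors' total. Summed over the table, replicate 1 had 999047 tags and replicate 2 had 3489697, which is 3.49 times as many. The median cluster of the table held 2 replicate 1 tags, so small clusters were measured imprecisely in that library. Tags per gene were counted in clusters of at least 10 tags where not stated otherwise. Of the member clusters 132, or 53.2%, reached that minimum, against 41.6% of all clusters with a gene symbol. Positions are those of the deposited table, and the processing notes name the human build hg18. Whether they count from 0 or 1 is not known.

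Binding was spread very unequally over the 8 genes. SCD, ACSL4 and INSIG1 held 89.3% of the 10061 tags that the genes had in clusters of at least 10 tags. INSIG2 came next, while HMGCS1, SQLE, SREBF2 and SREBF1 had few tags. More than 100 tags were found in 5 of the 8 genes, against 39.9% of all gene symbols in the table. By tags per gene, SCD was at rank 130, ACSL4 at 152, INSIG1 at 162 and INSIG2 at 845 of 5590 genes with such clusters. HMGCS1 was at rank 2830, SQLE at 3417, SREBF2 at 3457 and SREBF1 at 5068.

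The sterol sensors were considered first. INSIG1 (Entrez gene 3638) had 12 clusters, in which replicate 1 counted 537 tags and replicate 2 counted 2305. Scaled to 1000 tags of each replicate, that is 0.599 ± 0.0870 (SD, n = 2). INSIG2 (Entrez gene 51141) had 165 and 636 tags in 16 clusters, or 0.174 ± 0.0121 (SD, n = 2) per 1000. INSIG1 was above its paralogue in both libraries. Per kb of cluster length the level of INSIG1 was 2.95 times that of INSIG2 in replicate 1 and 3.29 times in replicate 2, a mean ratio of 3.12 ± 0.237 (SD, n = 2). When only exonic clusters were counted and divided by the spliced length of the canonical transcript, the ratio was 4.34 ± 0.357 (SD, n = 2).

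In INSIG1 the tags lay in a nearly continuous block at the 3' end. For each gene, deposited clusters of any size less than 50 nt apart were joined into stretches. A single stretch of 2010 nt, from 154730879 to 154732889 of chromosome 7 (plus strand), held 5 clusters and 90.8% of all INSIG1 tags. The largest cluster, at 154732309 to 154732889, was labelled 3'UTR and had 192 replicate 1 tags and 763 replicate 2 tags. With 955 tags it was at rank 193 of the 233546 deposited clusters, and it ended the block. The next 3'UTR clusters held 780 and 407 tags, and a cluster spanning coding sequence (CDS) and 3'UTR held 388. The CDS clusters of INSIG1 upstream of the block held between 7 and 70 tags. No INSIG1 cluster was labelled as intron.

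INSIG2 had the same kind of block with fewer tags. Its main stretch of 1864 nt from 118582303 to 118584167 of chromosome 2 (plus strand) joined 11 clusters with 75.7% of its tags. The largest cluster, at 118582527 to 118582790, had 25 replicate 1 tags and 112 replicate 2 tags. Unlike INSIG1, INSIG2 had clusters labelled intron, 8 in all, with 5 to 13 tags each. Per kb of cluster, its 3'UTR clusters held 4.87 ± 0.468 (SD, n = 2) times as many tags as its intron clusters.

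**Figure D1:**
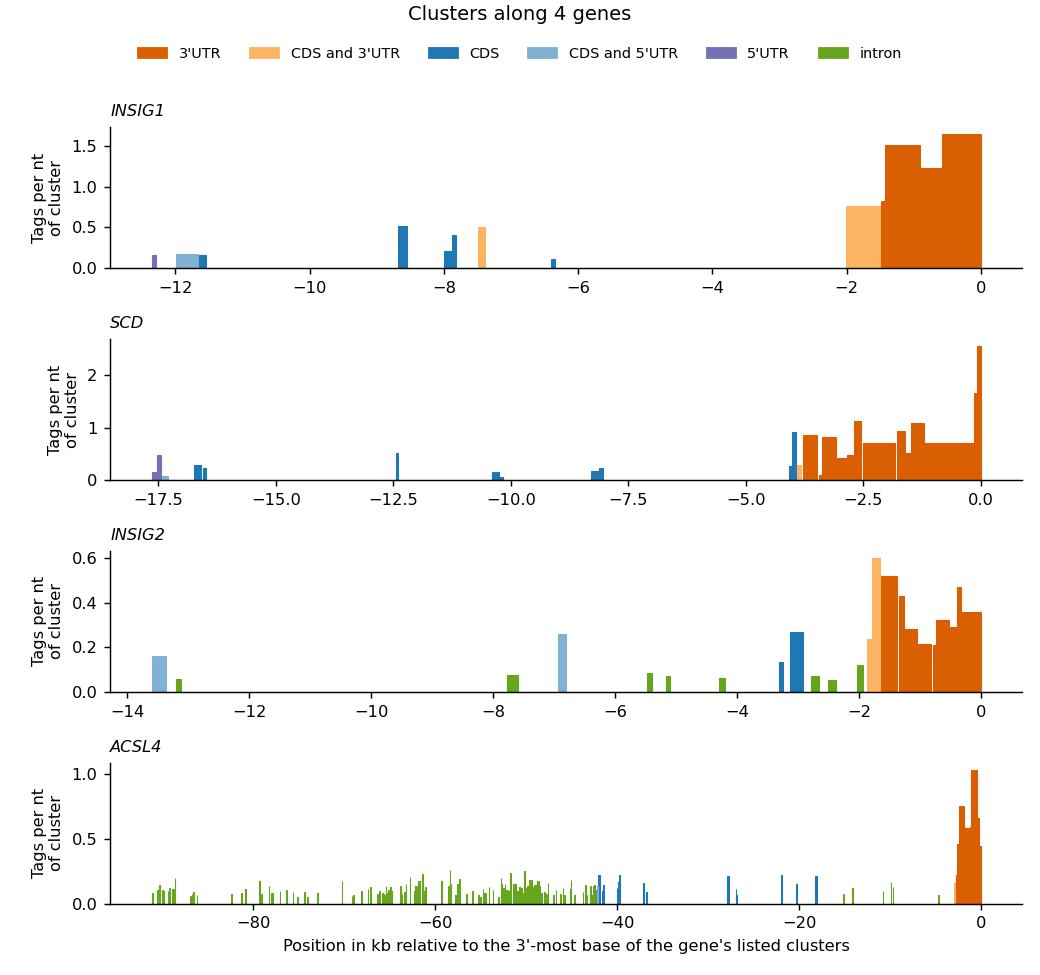
Clusters along INSIG1, SCD, INSIG2 and ACSL4. The horizontal axis is the position in kb relative to the 3'-most base of the gene's listed clusters, the height of a bar is the authors' total tags per nt of that cluster, and colours give the location label. The tallest bar is a 3'UTR cluster in INSIG1, SCD and ACSL4 and a cluster over CDS and 3'UTR in INSIG2 (0.603 tags per nt), and ACSL4 has 124 low intron clusters from 4.60 to 91.0 kb upstream.

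The SREBP transcription factor mRNAs were at the other end of the range. SREBF1 (Entrez gene 6720) had a single 3'UTR cluster, from 17656120 to 17656171 of chromosome 17 (minus strand). Replicate 1 had 3 of its tags and replicate 2 had 9, so that the Wilson 95% interval of the replicate 1 share ran from 8.89% to 53.2%. SREBF2 (Entrez gene 6721) had 3 clusters of at least 10 tags, with 16 replicate 1 tags and 55 replicate 2 tags in all. Its largest, a 3'UTR cluster from 40632315 to 40632675 of chromosome 22 (plus strand), held 35 tags. On the scale per 1000 tags, SREBF2 reached 0.0159 ± 0.000180 and SREBF1 reached 0.00279 ± 0.000300 (SD, n = 2 each). Exonic tags per kb of spliced transcript were 5.36 ± 0.515 (SD, n = 2) times higher in SREBF2 than in SREBF1, and 68.0 ± 10.6 (SD, n = 2) times higher in INSIG1 than in SREBF2. Clusters of the same strand with the symbol LINC00634 also lay within or near SREBF2. Of these, 2 labelled CDS, with 12 tags, lay from 40592998 to 40623102, between SREBF2's own clusters. Another 3, labelled intron and with 18 tags, lay upstream of all SREBF2 clusters. A single cluster with 43 tags, more than SREBF2's largest, started 445 nt beyond its 3'-most cluster. The choice by symbol leaves all of these out of the SREBF2 values and ratios. Which transcript they came from was not tested.

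The mevalonate and squalene enzymes were also sparsely bound. HMGCS1 (Entrez gene 3157) had 27 replicate 1 tags and 97 replicate 2 tags in 8 clusters, or 0.0274 ± 0.000545 (SD, n = 2) per 1000. Counting all 24 of its deposited clusters, with 220 tags and a median of 7, its tags fell in 18 separate stretches. The largest was 396 nt long, from 43325317 to 43325713 of chromosome 5 (minus strand), with 25.9% of all its tags. SQLE (Entrez gene 6713) had 14 and 60 tags in 2 clusters, or 0.0156 ± 0.00225 (SD, n = 2) per 1000. The larger SQLE cluster held 45 tags in the 3'UTR from 126103546 to 126103652 of chromosome 8 (plus strand), and the other held 29 tags over CDS and 3'UTR. The largest HMGCS1 cluster held 30 tags, 5 in replicate 1 and 25 in replicate 2, and was at rank 21224 of the deposited clusters.

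Of the fatty acid enzymes, SCD (Entrez gene 6319) had 568 replicate 1 tags and 2661 replicate 2 tags in 24 clusters, or 0.666 ± 0.137 (SD, n = 2) per 1000. The tags filled the 3' end of the mRNA in stretches of 2510 nt, from 102112064 to 102114574 of chromosome 10 (plus strand), and 1532 nt, at 102110480 to 102112012. These held 64.1% and 28.9% of all SCD tags. The largest cluster, at 102113387 to 102114420, had 128 replicate 1 tags and 609 replicate 2 tags. The densest lay at the very end, at 102114481 to 102114574, where 238 tags fell on 93 nt, or 2.56 tags per nt. Its 9 CDS clusters held 6 to 68 tags, and no SCD cluster was labelled as intron.

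ACSL4 (Entrez gene 2182) had 634 replicate 1 tags and 2316 replicate 2 tags in 66 clusters, or 0.649 ± 0.0206 (SD, n = 2) per 1000. It was the member with both a dense 3'UTR and extensive intron binding. A stretch of 2935 nt at its 3' end, from 108771180 to 108774115 of chromosome X (minus strand), held 53.7% of all its tags. The largest cluster, at 108771624 to 108772236, had 141 replicate 1 tags and 495 replicate 2 tags. Counting all deposited clusters, 124 of its 150 were labelled intron, with a median of 8.5 tags and a highest value of 50, and together they held 1363 tags. They were unevenly placed, with 89 of the 124 lying 40 to 70 kb upstream of the 3'-most listed base, a window chosen after the values were seen. Per kb of cluster, the 3'UTR clusters of ACSL4 held 5.18 times as many tags as its intron clusters in replicate 1 and 6.06 times in replicate 2. In HMGCS1, with 9 3'UTR and 6 intron clusters, the same ratio was 0.828 in replicate 1 and 1.85 in replicate 2 and thus changed direction between the libraries. Those 6 intron clusters held 33 tags in all, with 5 or 6 each. That is close to the minimum of 5 tags in the table, so this ratio is imprecise.

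The levels of the genes were then placed in order per length, and neighbours were called apart only where both replicates of the higher gene lay above both of the lower. Per kb of cluster length and 1000 tags of a replicate, the order was INSIG1 with 0.206 ± 0.0299, SCD with 0.142 ± 0.0292, INSIG2 with 0.0658 ± 0.00458, ACSL4 with 0.0628 ± 0.00199, SQLE with 0.0578 ± 0.00833, SREBF1 with 0.0547 ± 0.00588, HMGCS1 with 0.0299 ± 0.000594 and SREBF2 with 0.0298 ± 0.000338 (SD, n = 2 each). INSIG1 was apart from SCD, SCD from INSIG2, and SREBF1 from HMGCS1, and the other 4 neighbouring pairs overlapped. The rule takes no account of counting error. SREBF1 had only 3 replicate 1 tags and 9 replicate 2 tags, so its place above HMGCS1 is not established. This scale takes no account of the transcript outside clusters, so that a gene with a single short cluster such as SREBF1 stands high on it. Exonic tags per kb of spliced transcript placed SREBF1 last, with 0.000569 ± 6.1e-05 per 1000 tags, and INSIG1 first, with 0.206 ± 0.0299 (SD, n = 2 each). On this scale, added after the data were seen, 6 of 7 neighbouring pairs were apart, the exception being SQLE and HMGCS1.

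**Figure D2:**
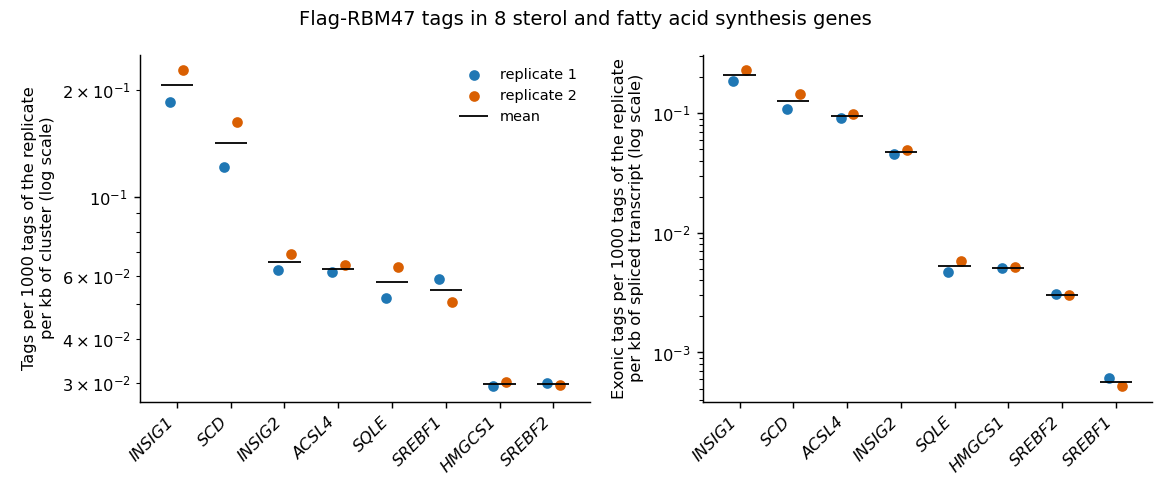
Tags of the 8 genes per 1000 tags of each replicate, per kb of cluster length (left) and, for exonic clusters, per kb of spliced canonical transcript (right), both on log axes. Points are the replicates and bars their mean (n = 2); INSIG1 is highest on both scales and SREBF1 is last only on the right.

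Among 4597 genes with exonic clusters and a canonical protein-coding transcript of known length, INSIG1 was at rank 54 with 976 exonic tags per kb, SCD at 103 with 615, ACSL4 at 186 with 427 and INSIG2 at 478 with 216. The median over these genes was 31.5 tags per kb, and HMGCS1, SQLE, SREBF2 and SREBF1 lay below it.

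The regions of the transcripts were compared next. Clusters labelled 3'UTR alone held 75.7% ± 0.997 (SD, n = 2) of the tags of the 8 genes per replicate, against 47.1% ± 0.359 (SD, n = 2) over all genes of the table. Introns held 9.19% ± 1.26 (SD, n = 2), against 18.9% ± 0.539 (SD, n = 2). Among the genes the 3'UTR share of the authors' total ranged from 60.8% in SQLE and 63.0% in ACSL4 to 89.8% in SCD and 100% in SREBF1, which has a single cluster. ACSL4 carried 46 of the 48 intron clusters that reached 10 tags. By number of clusters rather than tags, 31.8% of the member clusters lay in 3'UTRs alone, against 35.1% over all genes.

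**Figure D3:**
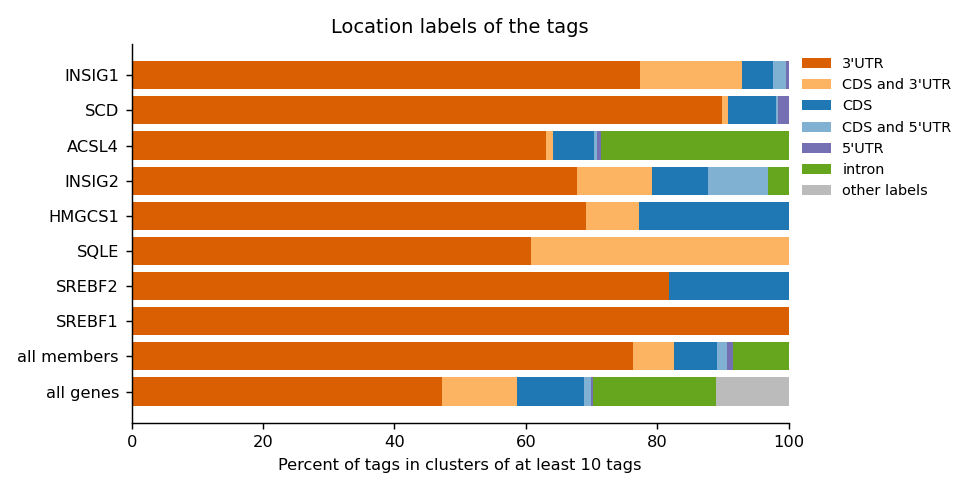
Share of tags in clusters of at least 10 tags by location label, for each gene, for the 8 genes together and for all genes of the table. The 3'UTR part is above 60% in every gene shown singly, and ACSL4 is the gene with a large intron part (28.6%).

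Since 3'UTRs and coding sequences differ in length, the tags were also divided by the length of each part in the canonical transcript, a scale added after the data were seen. The 3'UTR held 7.36 ± 0.909 times the tags per kb of the CDS in INSIG1, 7.85 ± 1.30 times in ACSL4, 3.18 ± 0.382 times in SCD and 2.01 ± 0.0568 times in INSIG2 (SD, n = 2 each). In SREBF2 the ratio was 9.17 ± 0.245 (SD, n = 2), from 13 CDS tags. In HMGCS1 it was 1.16 ± 0.574 (SD, n = 2) and lay on both sides of 1. The median over 2131 genes with tags in both parts was 3.65, with quartiles of 1.75 and 7.23, computed from the authors' total tags. INSIG1 and ACSL4 were above the upper quartile in replicate 1 and below it in replicate 2, where their ratios were 6.72 and 6.93. SCD and INSIG2 were between the lower quartile and the median in both replicates. Clusters spanning both parts were left out, which removed 441 INSIG1 tags. The labels are the authors' own and the lengths come from GENCODE, so the 2 may place a 3'UTR end differently. In HMGCS1 the 3'UTR-labelled clusters lay within 1938 nt of its 3'-most listed base, against a canonical 3'UTR of 3664 nt. In INSIG2 the 3' block was 1864 nt long, against 2678 nt. Such a difference would lower their ratios and was not tested.

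The split of the tags between the libraries was examined next. Only clusters with a tag in each replicate are listed, so binding seen in a single library cannot appear. The replicate 1 share of each cluster was compared with the 22.3% of the whole table. By the two-sided exact binomial test with Benjamini-Hochberg adjustment, 0 of the 248 member clusters were called. Over the table, 26 of the 233546 clusters, or 0.0111%, were called. The smallest clusters cannot reach such an adjusted p, so the 0 does not show that the shares were alike. At an unadjusted p under 0.05 the member count was 17, or 6.85%, against 3.04% of all clusters. Clusters with few tags can seldom reach such a p. The member clusters were larger, with a median of 10.5 tags against 8 for all clusters with a gene symbol, so these shares are not like for like. The lowest p of the exact binomial test among them was 3.83e-05 (adjusted p = 0.218), for the SCD 3'UTR cluster from 102112064 to 102112743, where replicate 1 had 71 tags and replicate 2 had 412.

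With all clusters of a gene summed, the same exact test called 2 of the 8 genes, where 1.51% of the 7698 gene symbols were called. These 2, SCD and INSIG1, were at ranks 130 and 162 by tags, and genes with many tags are more readily called. In SCD the replicate 1 share was 17.7% (Wilson 95% interval 16.4 to 19.0) against 22.0% over all genes, with an adjusted p of 1.09e-06. In INSIG1 it was 18.9% (17.5 to 20.4), with an adjusted p of 0.00719. Both were therefore higher in replicate 2 than in replicate 1 on the scale per 1000 tags. Larger clusters had a lower replicate 1 share across the whole table, with 20.8% in clusters of at least 30 tags. ACSL4 had a share of 22.1% (20.7 to 23.5) and an adjusted p of 1, and the other genes had adjusted p-values from 0.693 to 1. Neither call held under a beta-binomial test that allows genes to vary between libraries beyond counting error, with adjusted p of 0.882 for SCD and 1 for INSIG1.

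**Figure D4:**
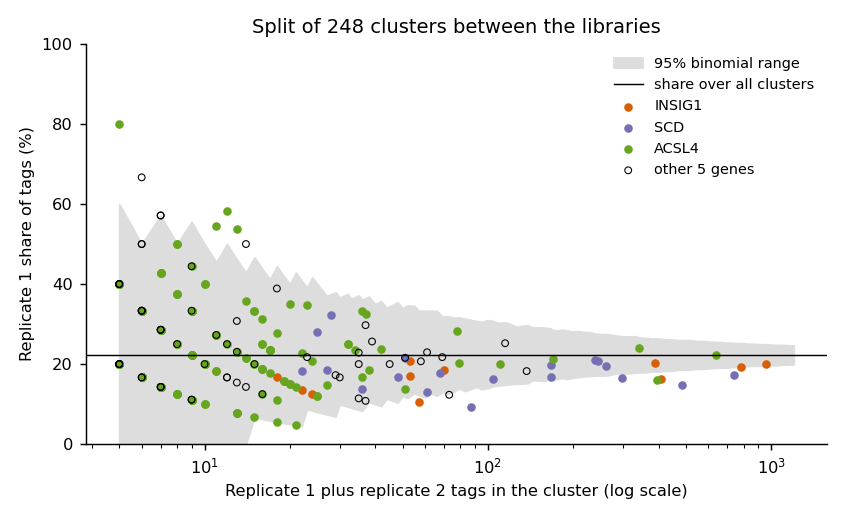
Replicate 1 share of the tags (percent) against the replicate tags of the cluster (log axis) for the 248 clusters, with the share over all clusters (22.3%, line) and the 95% binomial range around it (grey). The large INSIG1 and SCD clusters lie below the line, and small clusters scatter widely. Over all clusters of the table with at least 30 tags the share was 20.8%, also below the line.

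Clusters without a member symbol were looked for on either strand within 10 kb of the outermost cluster of each gene. Beyond the 3' end of INSIG2, 21 clusters with no gene symbol and 183 tags lay on the same strand, from 22 to 9735 nt past the last INSIG2 cluster, and carried the label for the 10 kb past a gene's end. They held 39 replicate 1 tags and 147 replicate 2 tags, a replicate 1 share of 21.0% (Wilson 95% interval 15.7 to 27.4), and the largest had 28 tags. Beyond ACSL4 there were 10 such clusters with 94 tags, from 3 to 5631 nt past its last cluster. To which transcript these belong cannot be told from the table. None was listed around INSIG1, SCD, HMGCS1, SQLE or SREBF1, and no cluster of the opposite strand was listed around any of the 8 genes.

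The other genes of the pathway were taken from a list of 44 genes of sterol and fatty acid metabolism. They were listed for their function, but with earlier results of these data known, so the shares below are description only. Of these 33 had a deposited cluster, 30 had one of at least 10 tags and 21 had more than 100 tags in such clusters. Over the table, 72.6% of the gene symbols had a cluster of at least 10 tags. More than 100 tags were thus found in 63.6% of the listed genes with a cluster, against 39.9% of all gene symbols. Exonic tags per kb of spliced transcript were above the median of all genes in 21 of the 30 genes, with a median of 56.5 tags per kb against 31.5.

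The 4 listed genes with the most tags were SOAT1, ELOVL5, SC5D and FADS1. ELOVL5, which lengthens polyunsaturated fatty acyl chains, had 822 replicate 1 tags and 3082 replicate 2 tags, and 87.6% of its tags lay in a single cluster of 3421 tags over CDS and 3'UTR. Its 1412 exonic tags per kb of transcript exceeded those of every member. SC5D, a desaturase of late cholesterol synthesis, had 722 and 2767 tags, with 90.2% in clusters labelled 3'UTR alone. SOAT1, which esterifies cholesterol for storage, had 849 and 3145 tags, with 42.2% in clusters labelled 3'UTR alone, 24.4% over CDS and 3'UTR and 17.8% over 3'UTR and intron. FADS1, a fatty acid desaturase, had 333 and 1300 tags, with 88.1% in clusters of the 3'UTR label alone. None of the 33 with a cluster was called in the gene test of the split between libraries, and the 11 without a deposited cluster included LSS, DHCR7, MVD, MVK, PMVK, NSDHL, HSD17B7, TM7SF2, SCAP and ACSS2. Since the table lists only clusters of at least 5 tags with a tag in each replicate, smaller amounts of binding in these genes are not seen here.

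**Figure D5:**
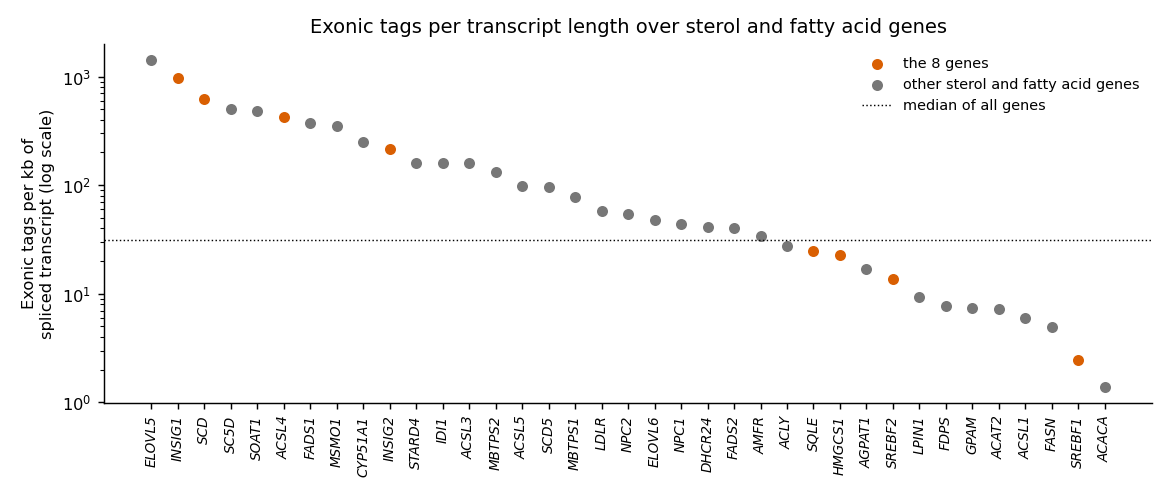
Exonic tags of the authors' total per kb of spliced canonical transcript (log axis) for the 8 genes (orange) and 29 of the 30 listed genes with clusters of at least 10 tags (grey), in falling order. The dotted line is the median of all genes (31.5 tags per kb); 4 of the 8 genes lie above it.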

How the data were processed

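RNA from 2 Flag-RBM47 libraries was tailed, reverse transcribed with a barcoded primer and sequenced by the authors. On the Galaxy platform the authors aligned the reads, used a degenerate barcode to keep unique tags, and joined these into clusters. The submitters' processing notes name Novoalign and hg18, with no version. Each deposited row gives the tag counts of a cluster, per replicate and in total. The table holds clusters of at least 5 tags in total and 1 in each replicate, as read from the values, so column sums are not library depths, and 0 columns of samples were left out. Replicate tags exceeded the total in 42 of the 248 member clusters, by at most 5.

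Of the 248 member clusters, 232 lay outside their gene in GENCODE 44 on GRCh37, so no reference coordinate or sequence was used. Lengths of Ensembl canonical transcripts came from GENCODE, and the location labels are the authors' own. Listed genes were matched by RefSeq gene ID (44 of 44). Exact binomial tests used a threshold of 0.05 over the whole table (SciPy 1.17.1, pandas 2.3.3) and were tested on simulated data. Wilson intervals cover counting error only. All 8 members, their largest clusters and the listed genes with most tags were named, of which 1 is not reported here. Members and lists were chosen with earlier results of these data known. Alternatives were the tag minimum, single libraries, the tag column, the expected share and the test.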

Additional observations from a re-analysis of the deposited data

How the results depend on the processing

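SCD, ACSL4 and INSIG1 were among the tenth of genes with the most tags under each of the 4 alternatives, and INSIG1 was first per length under each of the 5 tried. Members with more than 100 tags numbered 4 or 5 under the 7 alternatives; HMGCS1, with 123 tags, had 30 at a minimum of 30 tags. The 3'UTR share of the member tags, 76.3% of the authors' total, was 71.2% in all deposited clusters, 85.7% at 30 tags, 82.5% when every label that includes 3'UTR was counted and 31.8% as a share of clusters. With each replicate left out, and the minimum of 10 tags applied to the other alone, it ranged from 77.7% to 89.6%. These settings keep different clusters. In the same clusters the replicates gave 75.7% ± 0.997 (SD, n = 2). The share over all genes, 47.2%, became 41.3%, 53.7% and 63.1% under the first 3 of these settings. Neighbours apart in the order per length were 3 of 7, against 5 with the length of all clusters, 6 of 6 at 30 tags and 6 of 7 per kb of transcript. The test of genes called 116 genes, 192 when scaled to the median ratio over genes, 23 in clusters of at least 10 tags and 6 under the beta-binomial test, with an overdispersion of 0.00142. Members called were 2, 2, 1 and 0. In clusters of at least 10 tags INSIG1 lost its call (adjusted p = 0.385 in the exact test) and SCD kept it (adjusted p = 0.00122). Of the called genes 51 were lower in replicate 1, against 165, 11 and 4 under those settings. No paired analysis was possible because both libraries belong to 1 group. The small replicate 1 library limits single clusters.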
